A study of Danio rerio with 6 samples.

Results

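The genes described here were far higher in control III than in the other controls of the experiment. A gene was taken when control III held at least 5 CPM (the count divided by the sample's total, times 1000000) and at least 10 times the higher of controls I and II. Of 32266 genes counted, 69 were taken. A further 7 genes met both limits within a single stretch of chromosome 12, among them the hatching gland gene ctslb, and were left out. Because the 3 controls chose the genes, control levels are given as a description, with no test.

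The study depleted Atoh1b, a transcription factor needed for the first hair cells of the ear, and counted transcripts of pax8:DsRed-positive cells by RNAseq. The atoh1b-MO samples (II, IV and V) came from embryos injected as zygotes with a morpholino, an antisense oligomer, against atoh1b. The controls (III, I and II) were wild type. All embryos were heterozygous for the pax8:DsRed reporter, with AB as the wild-type line, and were dissociated in early segmentation, when the reporter labels the precursors of the inner ear and epibranchial placodes (the OEPD) and those of the kidney. Each sample was thus a pool of sorted cells from many embryos, and the sort gate rather than a dissection defined the tissue. Titles and study give atoh1b as the depleted gene, although the genotype field of the injected samples reads dlx3b/4b knockdown, and the titles decided the groups.

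At this stage the embryo holds several tissues besides the OEPD. The neural tube is patterned along its length and from dorsal to ventral by homeobox, basic helix-loop-helix (bHLH) and forkhead transcription factors. The first slow muscle fibres form beside the notochord, a rod whose cells secrete a sheath of collagens and other matrix proteins. The hatching gland, derived from the prechordal plate, makes the proteases that later open the chorion. None of these tissues is named as a target of the sort.

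Control III stood apart from the other samples and went against its label in part. Total counts ranged from 24120228 to 37169850 per sample, and mitochondrial transcripts took between 1.84% and 3.43%, with 2.82% in control III. PAX8, the gene whose reporter was sorted, had 111 CPM in atoh1b-MO II, against 205 and 178 CPM in IV and V. In control III it had 15.8 CPM, against 285 and 228 CPM in controls I and II. A list of 8 pronephros genes summed to 157 CPM in control III, against 2408 and 2230 CPM in controls I and II, and each of the 8 was at least 2-fold below both. The list of 10 otic and epibranchial genes summed to 363 CPM in control III, against 513 and 926 CPM in controls I and II. By gene, only 2 of the 10 were at least 2-fold below both, and 1 was at least 2-fold above both. The blood and endothelium list, 13 genes of tissue next to the kidney precursors, summed to 127 CPM in control III, against 3401 and 2815 CPM in controls I and II. Markers of the labelled nephric tissue were thus low in control III. The study dismissed a wild-type sample that diverged from the others without saying which, and control III is taken here to be that sample. In bulk samples, fewer cells of a type and less RNA per cell cannot be told apart.

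No other sample had such a set of genes. With the same 2 limits, 76 genes were at least 10-fold above both other samples of the group in control III, 0.689% of the 11036 genes with at least 5 CPM there. The count was 0 in each of the 5 remaining samples. The 69 genes lay on 24 chromosomes, and 68 carried a gene symbol. Positions are printed as deposited, and the sources disagree on the genome build (GRCz10 in the processing notes, a later one in the methods). Symbols are printed as the gene table gives them, many in upper case, with the zebrafish name of RefSeq beside them where it differs.

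The 69 genes summed to 1825 CPM in control III, against 102 and 142 CPM in controls I and II. In the atoh1b-MO samples they summed to 708 CPM in II, against 512 and 354 CPM in IV and V. Single genes had between 5.07 and 141 CPM in control III, with a median of 14.9 CPM. The ratio of control III to the higher of controls I and II had a median of 12.3 and reached 54.6 for MYOG. Just inside the limit stood EGR2 at 10.02, bicc2 at 10.13 and ENSDARG00000030176 at 10.19, and just outside it ENSDARG00000074745 at 9.89, tlx2 at 9.86 and NKX2-2 at 9.84. The genes fell into 16 of the neural tube, 17 of muscle, 9 of matrix and secreted proteins, 3 of the hatching gland, 4 further transcription factors and 20 others. Of the 69, 9 stood on marker lists drawn up for the cell types of the embryo.

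**Figure D1:**
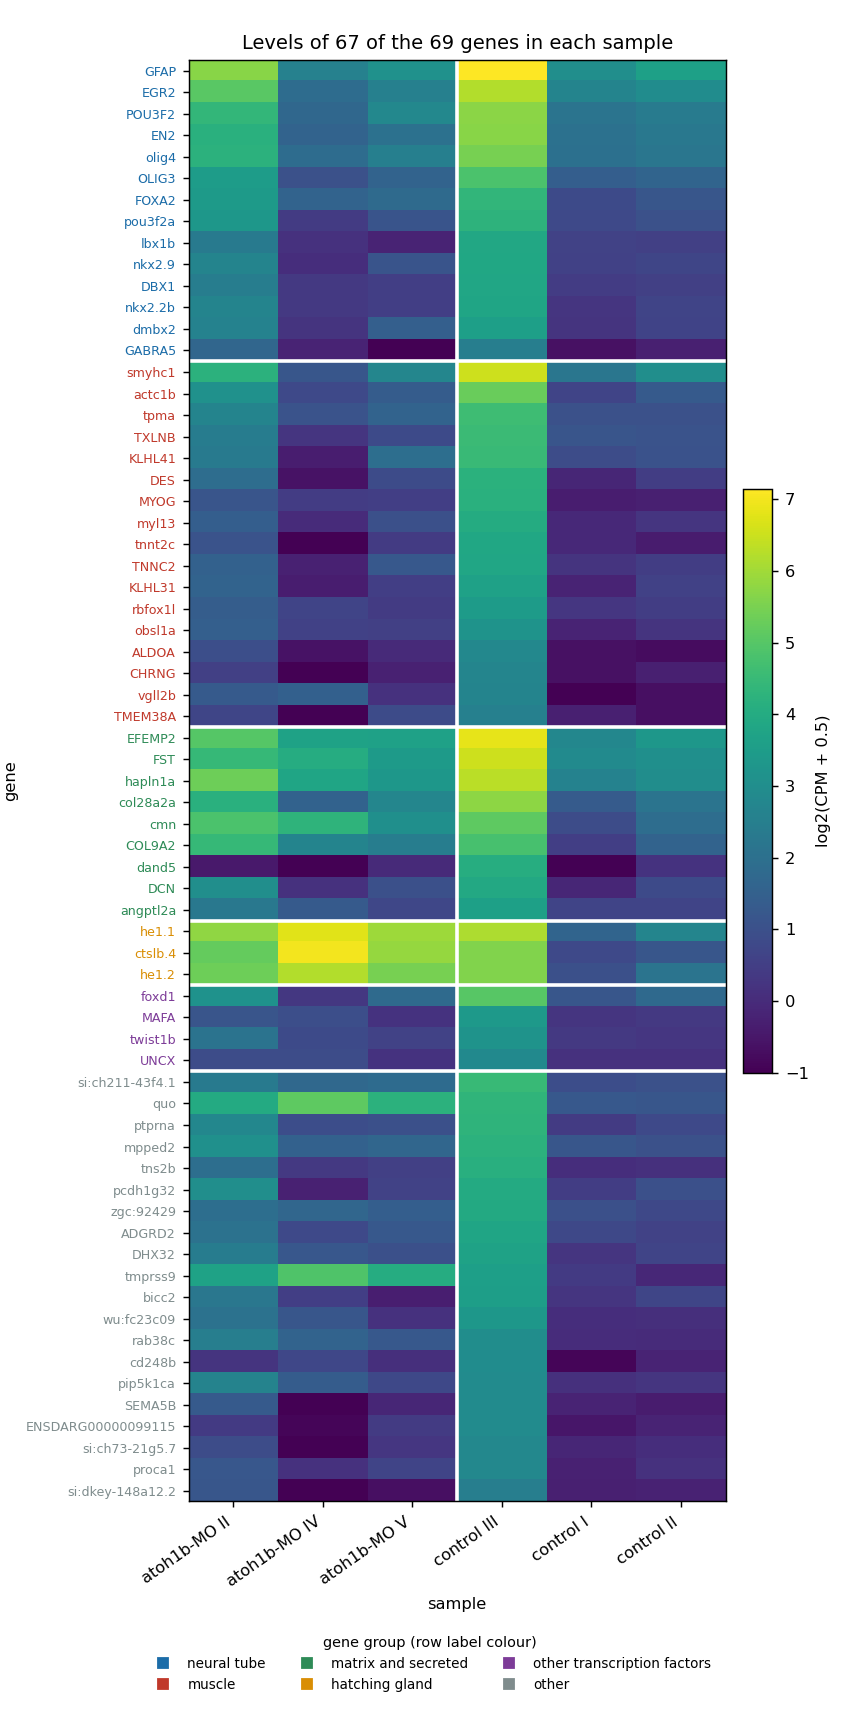
Levels of 67 of the 69 genes (rows, grouped and coloured by role) in each sample (columns, atoh1b-MO left of controls), as log2 of CPM plus 0.5. The control III column is bright throughout, as the choice of genes required, the atoh1b-MO II column is brighter than IV and V in most rows, and the hatching gland rows are brightest in atoh1b-MO IV.

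Neural tube genes formed the group with the highest summed level in control III. The 16 genes summed to 227 CPM in atoh1b-MO II, against 28.0 and 47.9 CPM in IV and V, and to 587 CPM in control III, against 38.2 and 50.1 CPM in controls I and II. All 16 were highest in atoh1b-MO II among the atoh1b-MO samples, and all 16 were at least 2-fold above both IV and V there. The share over all 11036 genes with at least 5 CPM in control III was 3.81%. The 95% Wilson interval of atoh1b-MO II, which covers counting error only, lay above those of IV and V for each of the 16, against 16.6% of the 11036 genes.

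GFAP (gfap, chromosome 3, 31660727 to 31672767, minus strand), the intermediate filament of radial glia, led the group. It had 50.9 CPM in atoh1b-MO II, against 5.43 and 8.25 CPM in IV and V. It had 141 CPM in control III, against 7.67 and 11.8 CPM in controls I and II. The level in atoh1b-MO II was thus 2.84 above the mean of IV and V on the log2 scale (log2 of CPM plus 0.5, which understates differences of low genes). Control III thus had the highest level and atoh1b-MO II the next of the 6 samples.

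Several of the transcription factors mark a level of the brain. EGR2 (egr2b, chromosome 12, 8445995 to 8466435, minus strand) is the zinc finger factor of alternating hindbrain segments. It had 33.2 CPM in atoh1b-MO II against 3.19 and 5.41 CPM in IV and V, and 72.5 CPM in control III against 5.85 and 7.24 CPM in controls I and II. EN2 (en2b), an engrailed factor of the boundary between midbrain and hindbrain, had 17.4 CPM in atoh1b-MO II against 2.53 and 3.63 CPM in IV and V, and 51.7 CPM in control III against 3.59 and 4.25 CPM in controls I and II. The differences between atoh1b-MO II and the mean of IV and V were 2.85 for EGR2 and 2.34 for EN2 on the log2 scale. POU3F2 (pou3f2b), a POU domain factor of neural progenitors, had 20.7 CPM in atoh1b-MO II against 2.82 and 6.50 CPM in IV and V, and 52.7 CPM in control III against 3.9 and 4.79 CPM in controls I and II. Its paralogue pou3f2a had 9.36 CPM in atoh1b-MO II against 0.829 and 1.68 CPM in IV and V, and 18.7 CPM in control III against 1.22 and 1.53 CPM in controls I and II. Both paralogues met the limits of the choice and had the same order of atoh1b-MO samples.

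Further factors belong to positions between dorsal and ventral. The bHLH genes olig4 and OLIG3 (olig3) act in the dorsal neural tube. The olig4 gene had 18.1 CPM in atoh1b-MO II against 3.15 and 5.20 CPM in IV and V, and 44.1 CPM in control III against 3.48 and 4.12 CPM in controls I and II. OLIG3 had 10.9 CPM in atoh1b-MO II against 1.53 and 2.53 CPM in IV and V, and 28.3 CPM in control III against 2.23 and 2.61 CPM in controls I and II. At the ventral side, FOXA2 (foxa2), the forkhead factor of the floor plate, had 10.3 CPM in atoh1b-MO II against 2.49 and 3.01 CPM in IV and V, and 20.1 CPM in control III against 1.29 and 1.75 CPM in controls I and II. FOXA2 had the smallest difference of the group, 1.73 on the log2 scale. The ventral homeobox gene nkx2.9 had 5.85 CPM in atoh1b-MO II against 0.539 and 1.68 CPM in IV and V, and 13.9 CPM in control III against 0.976 and 1.13 CPM in controls I and II. In these dorsal and ventral genes control III was the highest and atoh1b-MO II the next of the 6 samples, whereas the order of the other samples varied.

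The remaining neural genes included nkx2.2b, DBX1 (dbx1b), lbx1b, dmbx2 and GABRA5 (gabra5). Among them are homeobox factors of interneuron progenitors (DBX1, lbx1b) and a subunit of the GABA receptor (GABRA5). GABRA5 had 2.75 CPM in atoh1b-MO II, against 0.373 CPM in IV and 0 counts in V. In this sample 0 counts allow up to 0.103 CPM, the level of 3 counts. Over the 16 genes atoh1b-MO II reached a median of 40.2% of the level in control III.

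Muscle genes had the highest median ratio between controls, 16.9. The 17 genes summed to 65.6 CPM in atoh1b-MO II, against 12.3 and 27.2 CPM in IV and V, and to 332 CPM in control III, against 14.1 and 20.6 CPM in controls I and II. In atoh1b-MO II, 15 of the 17 were the highest of the atoh1b-MO samples (37.9% of the 11036 genes were) and 9 were at least 2-fold above both IV and V (3.81% were). The Wilson interval lay above both for 10 of the 17, beside 16.6% of the 11036 genes. In proportion to control III the muscle genes were lower in atoh1b-MO II than the neural genes, with a median of 20.4% and a range from 9.72% to 34.2%.

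Among the contractile genes, smyhc1 (chromosome 24, 40956288 to 40968424, minus strand) encodes the slow muscle myosin heavy chain. It had 18.4 CPM in atoh1b-MO II against 1.74 and 6.12 CPM in IV and V, and 91.0 CPM in control III against 4.08 and 7.64 CPM in controls I and II. Its exons overlap those of smyhc2 on the same strand, so reads of these copies may have been lost or shared. The actin gene actc1b had 8.20 CPM in atoh1b-MO II against 1.24 and 2.09 CPM in IV and V, and 38.2 CPM in control III against 1.08 and 1.99 CPM in controls I and II. The tropomyosin gene tpma had 5.89 CPM in atoh1b-MO II against 1.62 and 2.53 CPM in IV and V, and 24 CPM in control III against 1.53 and 1.51 CPM in controls I and II. For these filament genes atoh1b-MO II was 2.30, 2.03 and 1.34 above the mean of IV and V on the log2 scale, in the order smyhc1, actc1b and tpma.

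Troponin and light chain genes (tnnt2c, TNNC2, myl13) followed smyhc1 in control III at lower levels. The troponin T gene tnnt2c had 1.63 CPM in atoh1b-MO II, against 0 counts in IV and 0.821 CPM in V, and 14.1 CPM in control III against 0.453 and 0.269 CPM in controls I and II. DES (desma), the desmin of muscle intermediate filaments, had 3.23 CPM in atoh1b-MO II against 0.166 and 1.3 CPM in IV and V, and 17.7 CPM in control III against 0.418 and 0.888 CPM in controls I and II. KLHL41 (klhl41b), a kelch protein of the sarcomere, had 4.58 CPM in atoh1b-MO II against 0.290 and 3.35 CPM in IV and V, and 22.6 CPM in control III against 1.36 and 1.56 CPM in controls I and II. TXLNB (txlnba), a taxilin of muscle, had 4.90 CPM in atoh1b-MO II against 0.705 and 1.27 CPM in IV and V, and 22.9 CPM in control III against 1.71 and 1.61 CPM in controls I and II. In each of these genes, as in smyhc1, actc1b and tpma, the atoh1b-MO V level was closer to II than that of IV was. Not all muscle genes had this order, and vgll2b did not.

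MYOG (myog, chromosome 11, 22436006 to 22439016, minus strand), myogenin, is a bHLH factor that drives the differentiation of muscle cells. It had 17.6 CPM in control III against 0.279 and 0.323 CPM in controls I and II, the widest ratio of all 69 genes. In the atoh1b-MO samples it had 1.71 CPM in II, against 0.871 and 0.924 CPM in IV and V, and the Wilson intervals of these samples overlapped. MYOG was thus among the 2 genes at least 10-fold above all 5 other samples in control III, at 10.3 times the highest of them. Of muscle genes on the marker list that were not chosen, MYOD1 had 20.8 CPM in control III against 1.78 and 2.53 CPM in controls I and II, and its atoh1b-MO levels were 4.46 CPM in II against 4.10 and 3.83 CPM in IV and V. In vgll2b, a cofactor of myogenic transcription, and TMEM38A, a channel of the sarcoplasmic reticulum, atoh1b-MO II was not the highest. The vgll2b gene had 1.99 CPM in atoh1b-MO II against 2.32 and 0.616 CPM in IV and V.

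**Figure D2:**
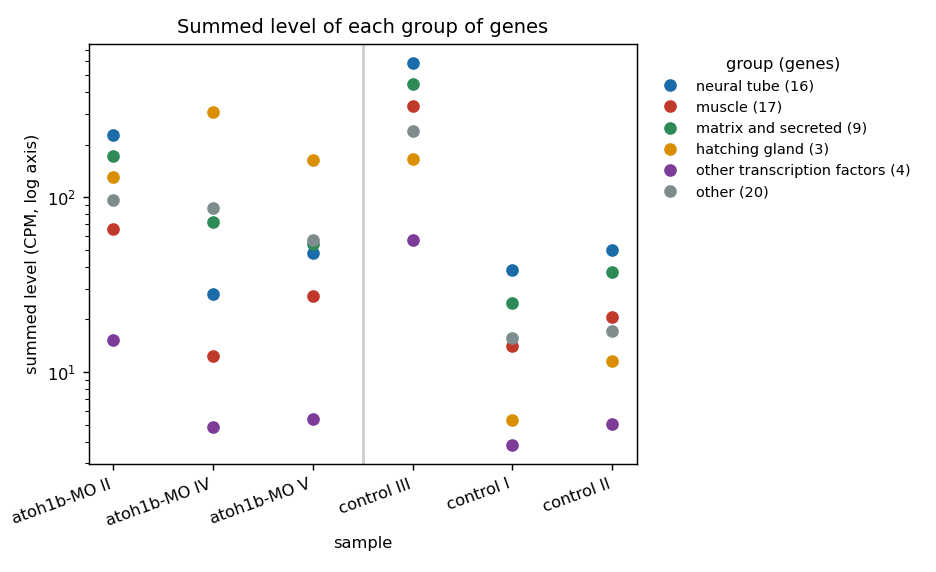
Summed level of each group of genes (CPM, log axis) in each sample, atoh1b-MO left of controls, with the number of genes in brackets and 1 point for each sample. Neural genes had 227 CPM in atoh1b-MO II against 28.0 and 47.9 CPM in IV and V, whereas hatching gland genes had 131 CPM in II against 308 and 163 CPM in IV and V.

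The 9 matrix and secreted genes summed to 172 CPM in atoh1b-MO II, against 71.9 and 54.2 CPM in IV and V, and to 443 CPM in control III, against 24.8 and 37.3 CPM in controls I and II. In atoh1b-MO II, 8 of the 9 were the highest of the atoh1b-MO samples (37.9% of the 11036 genes were) and 6 were at least 2-fold above both others (3.81% were). The cmn gene, which encodes calymmin of the zebrafish notochord sheath, had 28.2 CPM in atoh1b-MO II against 19.3 and 7.77 CPM in IV and V, and 34.4 CPM in control III against 1.36 and 3.26 CPM in controls I and II. COL9A2 (col9a2), a collagen of notochord sheath and cartilage, had 21.5 CPM in atoh1b-MO II against 5.93 and 4.96 CPM in IV and V, and 27.1 CPM in control III against 0.941 and 2.5 CPM in controls I and II. In both genes atoh1b-MO II came close to control III, at 82.0% and 79.6% of its level.

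Other matrix genes reached less of the control III level. The collagen gene col28a2a had 17.4 CPM in atoh1b-MO II against 2.45 and 6.19 CPM in IV and V, and 53.2 CPM in control III against 2.06 and 3.9 CPM in controls I and II. The link protein gene hapln1a, whose product ties hyaluronan to proteoglycans, had 39.8 CPM in atoh1b-MO II against 13.4 and 9.51 CPM in IV and V, and 78.3 CPM in control III against 5.64 and 7.4 CPM in controls I and II. EFEMP2 (efemp2a), a fibulin of elastic fibres, was the second gene of the 69 by level. It had 31.4 CPM in atoh1b-MO II against 12.4 and 12.2 CPM in IV and V, and 115 CPM in control III against 6.38 and 9.47 CPM in controls I and II. FST (fsta), follistatin, binds and blocks activins. It had 21.5 CPM in atoh1b-MO II against 15.8 and 10.3 CPM in IV and V, and 92.3 CPM in control III against 6.93 and 7.80 CPM in controls I and II. FST differed least of these genes between atoh1b-MO II and the others, by 0.73 on the log2 scale.

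The dand5 gene, which encodes a secreted Nodal antagonist known from the margin of Kupffer's vesicle in zebrafish, differed from the rest of the group. It had 16.3 CPM (476 counts) in control III, against 0 counts in control I and 0.646 CPM (24 counts) in control II. In the atoh1b-MO samples it had 0.239 CPM (6 counts) in II, against 0 counts in IV and 0.479 CPM (14 counts) in V. Control III was 25.3 times the highest other sample, the widest such ratio of the 69 genes, and atoh1b-MO II held 1.46% of the control III level.

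Hatching gland genes had another order of samples. The 3 genes summed to 131 CPM in atoh1b-MO II, against 308 and 163 CPM in IV and V, and to 167 CPM in control III, against 5.33 and 11.6 CPM in controls I and II. Each was lowest in atoh1b-MO II (36.8% of the 11036 genes were) and highest in IV (28.9% were) among the atoh1b-MO samples. None was at least 2-fold below both IV and V in II. The Wilson interval of atoh1b-MO II lay below both for 2 of the 3, beside 12.7% of the 11036 genes. For he1.2 it overlapped that of V. The hatching enzyme gene he1.1 (chromosome 22, 14068532 to 14069969, plus strand) had 54.8 CPM in atoh1b-MO II against 108 and 61.4 CPM in IV and V, and 70.0 CPM in control III against 2.61 and 6.0 CPM in controls I and II. Its neighbour he1.2, whose exons overlap those of he1.1, had 39.9 CPM in atoh1b-MO II against 74.0 and 43.5 CPM in IV and V, and 48.2 CPM in control III against 1.5 and 3.87 CPM in controls I and II. The cathepsin L-like gene ctslb.4 had 36.4 CPM in atoh1b-MO II against 126 and 58.0 CPM in IV and V, and 48.5 CPM in control III against 1.22 and 1.75 CPM in controls I and II. Reads shared by he1.1 and he1.2 cannot be told apart by gene, and the pair is not independent.

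A pair of genes from the 20 others had the order of the hatching gland genes. The quo (quob) gene had 15.3 CPM in atoh1b-MO II against 34.7 and 18.4 CPM in IV and V, and 19.4 CPM in control III against 1.88 and 1.75 CPM in controls I and II. The transmembrane serine protease gene tmprss9 had 12.3 CPM in atoh1b-MO II against 29.4 and 15.8 CPM in IV and V, and 11.7 CPM in control III against 0.801 and 0.430 CPM in controls I and II. These 5 genes were those in which an atoh1b-MO sample was above control III, and in the other 64 control III was above all atoh1b-MO samples. Each of the 7 genes left out on chromosome 12 was also lowest in atoh1b-MO II and highest in IV among the atoh1b-MO samples. Of all 11036 genes 36.8% were lowest in II and 28.9% highest in IV. The 7 lie in a single stretch and were not taken as independent of each other. They had a summed level of 364 CPM in atoh1b-MO II against 1124 and 561 CPM in IV and V, and 404 CPM in control III against 9.86 and 21.9 CPM in controls I and II. The hatching gland list as a whole (11 genes matched) was not higher by its sum in control III. That sum was 473 CPM, against 495 and 523 CPM in controls I and II. In the atoh1b-MO samples it was 643 CPM in II against 990 and 892 CPM in IV and V. The gene klf17 made up a large part of these sums, except in control III. It had 245 CPM in atoh1b-MO II against 354 and 463 CPM in IV and V. Of its genes 4 were at least 2-fold above both other controls in control III. The only gene at least 2-fold below both was klf17, with 39.7 CPM in control III against 346 and 325 CPM in controls I and II. Most of the list sum in controls I and II was thus klf17, and this sum says little of the other genes. The blood and endothelium list was likewise lowest in control III. Among the atoh1b-MO samples that list had 1621 CPM in II against 2421 and 2986 CPM in IV and V. Whether klf17 came from hatching gland in these samples was not tested.

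Compared per length of the gene, he1.1 and GFAP led in control III. The he1.1 gene had 51.8 CPM per kb in atoh1b-MO II against 102 and 58.1 CPM per kb in IV and V, and 66.2 CPM per kb in control III against 2.47 and 5.68 CPM per kb in controls I and II. GFAP had 19.2 CPM per kb in atoh1b-MO II against 2.05 and 3.11 CPM per kb in IV and V, and 53.2 CPM per kb in control III against 2.89 and 4.45 CPM per kb in controls I and II. On this scale the leading gene in control III was a hatching enzyme and the second was glial.

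Outside the neural tube group stood 4 transcription factors. The forkhead gene foxd1 had 8.44 CPM in atoh1b-MO II against 0.746 and 3.05 CPM in IV and V, and 31.8 CPM in control III against 1.74 and 2.93 CPM in controls I and II. The bHLH gene twist1b, active in mesenchyme, had 3.78 CPM in atoh1b-MO II against 1.29 and 1.03 CPM in IV and V, and 8.53 CPM in control III against 0.767 and 0.726 CPM in controls I and II. Both were at least 2-fold above IV and V in atoh1b-MO II, whereas UNCX (uncx), a homeobox factor of the somites, and MAFA (mafaa) were not. UNCX had 1.35 CPM in atoh1b-MO II against 1.37 and 0.650 CPM in IV and V, and 6.85 CPM in control III against 0.627 and 0.619 CPM in controls I and II.

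The 20 remaining genes were put in no group. Their sum was 96.4 CPM in atoh1b-MO II against 86.7 and 56.9 CPM in IV and V, and 239 CPM in control III against 15.6 and 17.3 CPM in controls I and II, and 11 of the 20 were at least 2-fold above both IV and V in atoh1b-MO II, beside 3.81% of the 11036 genes. The clustered protocadherin gene pcdh1g32 had 7.73 CPM in atoh1b-MO II against 0.332 and 1.03 CPM in IV and V, and 15.3 CPM in control III against 0.906 and 1.48 CPM in controls I and II. Its difference of 2.87 on the log2 scale was the largest of the 69 genes. It shares exons with 16 other genes on its strand, as clustered protocadherins do, so its count is uncertain. The bicc2 gene, near the limit of the choice, had 4.22 CPM in atoh1b-MO II against 0.912 and 0.308 CPM in IV and V, and 11.4 CPM in control III against 0.697 and 1.13 CPM in controls I and II. The gene si:ch211-43f4.1, which is comp (cartilage oligomeric matrix protein) in RefSeq and is not counted in the 9 matrix genes, had 4.54 CPM in atoh1b-MO II against 2.86 and 3.08 CPM in IV and V, and 22.0 CPM in control III against 1.39 and 1.53 CPM in controls I and II. ENSDARG00000030176, near the limit as well, had 3.31 CPM in atoh1b-MO II against 2.69 and 2.22 CPM in IV and V, and 14.9 CPM in control III against 1.46 and 1.18 CPM in controls I and II.

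Across all 69 genes, atoh1b-MO II exceeded the mean of IV and V by a median of 1.47 on the log2 scale, with a range from -1.22 for ctslb.4 to 2.87 for pcdh1g32. Over the 11036 genes with at least 5 CPM in control III the median was 0.00, with the 5th and 95th percentiles at -0.42 and 0.94. The level in atoh1b-MO II was the highest of the atoh1b-MO samples in 58 of the 69 genes and the lowest in 5, where all 11036 genes gave 37.9% and 36.8%. It was at least 2-fold above both others in 44 of the 69, or 63.8% beside 3.81% of all 11036 genes, and at least 2-fold below both in 0, beside 0.0725% of all genes. Its Wilson interval lay above both others in 48 of the 69 (16.6% of all genes) and below both in 4 (12.7% of all genes). The 11036 genes were not matched to the 69 by level in the atoh1b-MO samples. Low genes reach a 2-fold gap more easily by counting error. For the 19 of the 69 genes with a mean of at least 5 CPM in the atoh1b-MO samples, the median excess was 1.77. The choice of genes used no atoh1b-MO sample, but with a single sample against a pair within a group the difference has no replicate check and was not tested. The pronephros list summed to 1643 CPM in atoh1b-MO II against 2422 and 2265 CPM in IV and V, and 1 of its 8 genes was at least 2-fold below both. The otic and epibranchial list, the other sorted tissue, summed to 409 CPM in atoh1b-MO II against 459 and 433 CPM in IV and V, and 0 of its 10 genes was at least 2-fold below both. The part of these markers in the result was not tested. Among the 3, atoh1b-MO IV was highest in 8 genes (28.9% of all 11036), the 5 of the hatching gland order together with cd248b, vgll2b and UNCX.

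**Figure D3:**
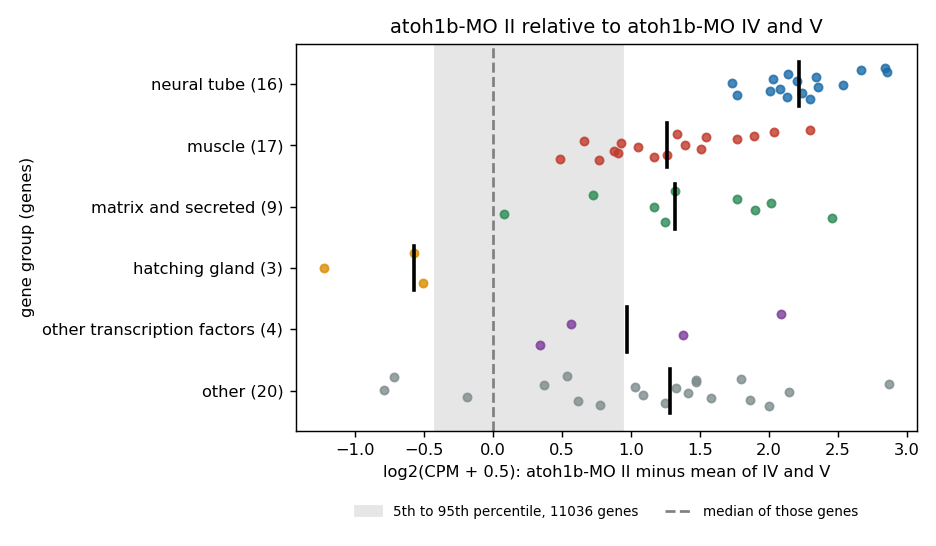
Difference between atoh1b-MO II and the mean of atoh1b-MO IV and V for each of the 69 genes (points, log2 of CPM plus 0.5), by group, with the group median as a black bar. The grey band spans the 5th to 95th percentile of 11036 genes (-0.42 to 0.94), and all 16 neural tube genes lie to its right while the 3 hatching gland genes lie to its left.

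The excess in atoh1b-MO II was not confined to the genes chosen by the 10-fold limit. Of 10226 genes in which control III was less than 2 times the higher of controls I and II, 0.753% were at least 2-fold above both IV and V in atoh1b-MO II. The share was 30.9% of 534 genes at ratios from 2 to 5, 67.7% of 198 genes from 5 to 10, and 63.8% of the 69. The highest step was thus not above the one before it. Outside the chromosome 12 stretch, 420 genes of at least 5 CPM in control III were at least 2-fold higher in atoh1b-MO II than in IV and V, and 81.7% of them were at least 2-fold above both controls I and II in control III, beside 7.26% of all 11027 genes at that minimum. The minimum in control III removes genes that are low there and so raises this share. With the minimum set on atoh1b-MO II instead, an alternative chosen after seeing the data, the share was 77.6% of 322 genes, beside 4.99% of all 11165 genes with at least 5 CPM in atoh1b-MO II. Of the 801 genes with that excess in control III, 42.8% had it in atoh1b-MO II.

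**Figure D4:**
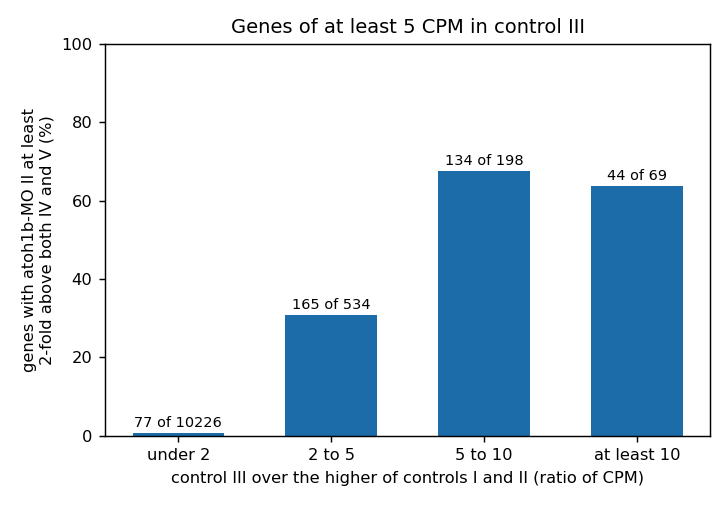
Share of genes (%) with atoh1b-MO II at least 2-fold above both IV and V, for genes of at least 5 CPM in control III grouped by the ratio of control III to the higher of controls I and II, with counts above the bars. The share is 0.753% below a ratio of 2, 30.9% from 2 to 5, 67.7% from 5 to 10 and 63.8% for the 69 genes at 10 or more.

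Marker lists, most of whose genes were not among the 69, give the levels of tissue markers beside them and do not assign the 69 genes to a tissue. The neural list (6 genes, among them SOX3 and ELAVL3, which mark neural progenitors and young neurons) summed to 574 CPM in atoh1b-MO II against 115 and 159 CPM in IV and V, and to 1247 CPM in control III against 115 and 178 CPM in controls I and II. None of these 6 genes reached the 10-fold limit, yet all 6 were at least 2-fold above both other controls in control III. The forebrain and eye field list summed to 269 CPM in atoh1b-MO II against 60.9 and 70.0 CPM in IV and V, and to 568 CPM in control III against 54.3 and 87.5 CPM in controls I and II. All 15 of its genes were at least 2-fold higher in control III and 12 in atoh1b-MO II, and none was among the 69. These forebrain genes lay below the limit, at ratios between controls from 2.2 to 9.57. In the midbrain and hindbrain list (8 genes), EGR2 and EN2 (en2b) were above it, but the other EN2 gene (en2a) was not, at 7.75. That list summed to 209 CPM in atoh1b-MO II against 150 and 158 CPM in IV and V, and to 291 CPM in control III against 171 and 203 CPM in controls I and II. By gene, 6 were at least 2-fold above both other controls in control III and 1 at least 2-fold below. The latter was GBX2, with 27.4 CPM in control III against 104 and 129 CPM in controls I and II.

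The notochord list (12 genes) summed to 599 CPM in atoh1b-MO II against 373 and 261 CPM in IV and V, and to 705 CPM in control III against 208 and 208 CPM in controls I and II. Of its genes 9 were at least 2-fold higher in control III and 3 in atoh1b-MO II, but the notochord factor tbxta had 67.1 CPM in control III against 101 and 73.1 CPM in controls I and II. The muscle list (11 genes matched, 4 of them among the 69) summed to 92.3 CPM in atoh1b-MO II against 59.9 and 64.9 CPM in IV and V, and to 318 CPM in control III against 46.0 and 62.3 CPM in controls I and II. Of its genes 8 were at least 2-fold above both other controls in control III and 0 at least 2-fold below. In atoh1b-MO II, 3 were at least 2-fold above both IV and V. All 3 (smyhc1, actc1b and DES) were among the 69, so no listed gene outside the 69 had a 2-fold excess there. The presomitic and somitic mesoderm list (15 genes matched) had no excess by its sum. It summed to 258 CPM in atoh1b-MO II against 330 and 313 CPM in IV and V. In control III it summed to 380 CPM against 423 and 312 CPM in controls I and II. Gene by gene, 4 were at least 2-fold above both other controls in control III and 2 at least 2-fold below. In atoh1b-MO II, 0 were at least 2-fold above both IV and V and 1 was at least 2-fold below. The neural crest list (8 genes) summed to 202 CPM in atoh1b-MO II against 200 and 184 CPM in IV and V. In control III it summed to 208 CPM against 182 and 202 CPM in controls I and II. Of its genes 2 (PAX3 and snai1b) were at least 2-fold above both other controls in control III and 0 at least 2-fold below. In atoh1b-MO II, 1 (PAX3) was at least 2-fold above both IV and V and 0 at least 2-fold below. Of the skin lists, none of whose genes were among the 69, basal epidermis and periderm were also higher in both samples. The ionocyte list (8 genes) was not higher by its sum. It summed to 108 CPM in atoh1b-MO II against 88.8 and 109 CPM in IV and V. In control III it summed to 90.4 CPM against 98.4 and 103 CPM in controls I and II. Of its genes 2 were at least 2-fold above both other controls in control III and 1 at least 2-fold below. In atoh1b-MO II, 3 (foxi3a, foxi3b and GCM2) were at least 2-fold above both IV and V and 0 at least 2-fold below. The basal epidermis list (3 genes matched), nearly all of it TP63, summed to 86.5 CPM in atoh1b-MO II against 23.2 and 28.0 CPM in IV and V, and to 128 CPM in control III against 14.5 and 39.4 CPM in controls I and II. The list of the enveloping layer or periderm (19 genes) summed to 5533 CPM in atoh1b-MO II against 2653 and 2886 CPM in IV and V, and to 10439 CPM in control III against 2337 and 8446 CPM in controls I and II, so control II was high as well. By gene, only 1 of the 19 was at least 2-fold above both other controls in control III, and 1 at least 2-fold below. In atoh1b-MO II, 5 were at least 2-fold above both IV and V. The floor plate list had a lower sum in both samples. It was 312 CPM in atoh1b-MO II against 401 and 391 CPM in IV and V, and 167 CPM in control III against 347 and 359 CPM in controls I and II. Most of the sum in controls I and II was FOXJ1 (foxj1a), a factor of motile cilia. It had 22.9 CPM in control III against 259 and 269 CPM in controls I and II, and 191 CPM in atoh1b-MO II against 295 and 286 CPM in IV and V. By gene, 4 of the list were at least 2-fold above both other controls in control III and 2 at least 2-fold below. FOXA2, 1 of those 4, was among the 69. In atoh1b-MO II, 2 of the list, FOXA2 and SHH (shhb), were at least 2-fold above both IV and V and 0 at least 2-fold below.

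**Figure D5:**
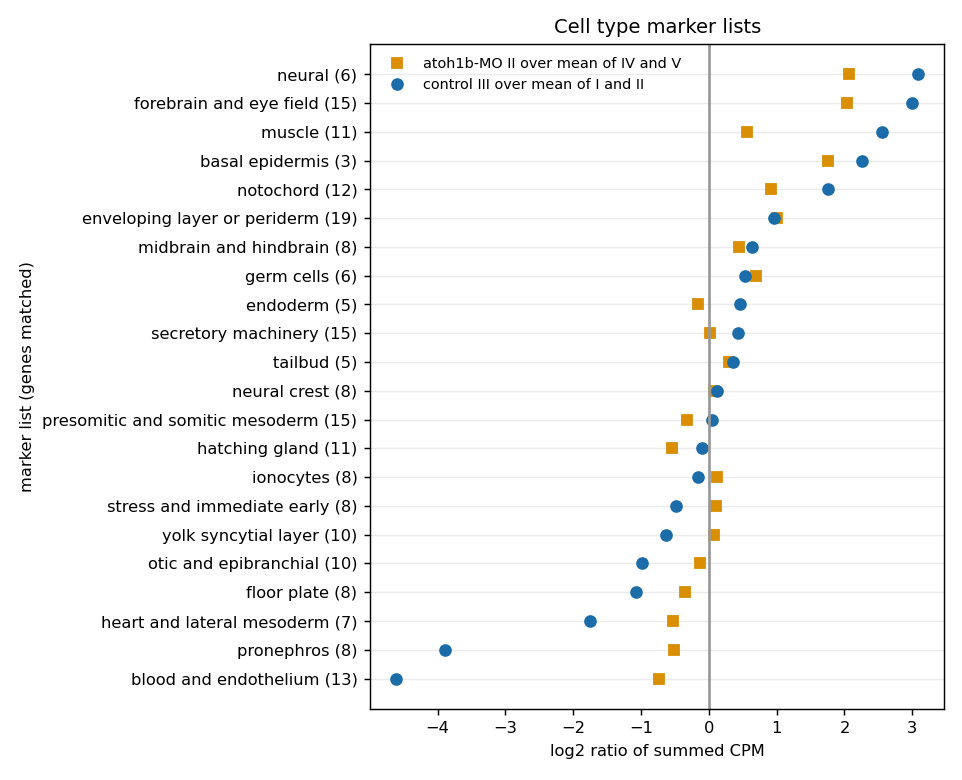
Log2 ratio of the summed CPM of each marker list for atoh1b-MO II over the mean of IV and V (squares) and for control III over the mean of controls I and II (circles), with the number of genes matched in brackets. Neural and forebrain lists lie farthest right in both ratios, and the pronephros and blood lists lie farthest left for control III.

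The comparison the study was made for, atoh1b-MO against controls, addresses which genes depend on Atoh1b. Its controls also chose the 69 genes, which were taken as low in controls I and II beside control III. Nothing about Atoh1b is thus read from the counts, fold changes or p-values among them, which are a description. Control III was first left out. Over the remaining 5 samples, 68 of the 69 were tested by edgeR's quasi-likelihood test and 5 had an adjusted p-value under 0.1, all higher in atoh1b-MO, beside 0.451% of all 18397 genes tested (0.598% in either direction). They were he1.1, he1.2, ctslb.4, quo and tmprss9, with log2 fold changes of 4.06 (SE 0.43), 4.22 (SE 0.44), 5.57 (SE 0.61), 3.60 (SE 0.41) and 4.93 (SE 0.51), and adjusted p-values of 0.016, 0.016, 0.017, 0.017 and 0.016 in the edgeR test. In each of the 5 all atoh1b-MO samples were above both controls. The same held for 31 of the 69 genes, these 5 included, which were chosen as low in these controls. Without control I, 0 of the 5 passed, and without control II 2 did. The neural and muscle genes had no call. With all 6 samples 0 of 17874 genes were called by edgeR, while 1040 had an unadjusted p-value under 0.05 and DESeq2 called 112, of which 0 were among the 69. The 68 tested genes had a median log2 fold change of 1.22 with 5 samples and -1.29 with 6. Over all genes tested the medians were 0.007 and -0.017. The choice set controls I and II low and control III high, so neither sign is read as a result. The p-values measure the spread between these samples only, since the labels do not say which embryos or clutches each came from.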

How the data were processed

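Transcripts of sorted cells were counted in 3 atoh1b-MO and 3 control samples, grouped by title. The deposited values are raw counts per Ensembl gene, which the authors made with featureCounts from uniquely aligned reads. The processing notes name GRCz10, bcl2fastq 2.19.1 and featureCounts 1.5.3, whereas the study's methods name a later genome build and featureCounts release, so positions are given as deposited, with the build unsettled. Labels and methods also describe different library preparations, and use of the read strand in counting is not stated. Unique alignment makes counts of near-identical paralogues too low. Of the 69 genes, 7 share exons with another gene on the same strand and 8 on the opposite strand. The table's 92 spike-in rows held 0 counts.

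CPM were computed from column totals (24120228 to 37169850, with 3 counts worth 0.0807 to 0.124 CPM), and log2 values with 0.5 CPM added. CPM per kb used the deposited exon length. Intervals are 95% Wilson intervals and, like the floor of 3 counts, cover counting error only. Gene symbols came from a gene table that matched 26433 identifiers, and zebrafish names from RefSeq. The 22 marker lists hold 225 genes, of which 211 were matched, 43 through a symbol without its paralogue letter.

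atoh1b-MO II, IV and V were tested against controls I and II, and against all 3 controls, with edgeR 4.0.16 in R 4.3.3 (TMM, filterByExpr, quasi-likelihood test, Benjamini-Hochberg adjustment over all genes tested, threshold 0.1). Standard errors were derived from the F statistic of the test. The clutch term of the study's model was not used, since the labels give no clutch. The edgeR script was tested on simulated data. Alternatives were DESeq2 1.42.0, its size factors, no filter, and leaving out each replicate; for the description, TMM scaling, other pseudocounts, other limits and the chromosome 12 genes kept. Named genes were the 25 highest in control III, those on marker lists, the 3 nearest to either side of the limit and the 5 with the largest and smallest atoh1b-MO II difference; all further genes named among the 69 were picked with their values in view. The genes, the lists and the tests were chosen with earlier results of these data known, and the 6 role groups were assigned from textbook knowledge after the values were seen. Of the 69 genes, 2 are not reported by name here, although counts, sums and medians over the genes include them.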

Additional observations from a re-analysis of the deposited data

How the results depend on the processing

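The number of genes chosen was 69, and became 104 with a minimum of 2 CPM, 267 with a minimum ratio of 5 and 8 with a ratio of 20. It was 78 with TMM-scaled totals and 50 with a minimum of 10 CPM. The median excess of atoh1b-MO II over IV and V was 1.47 on the log2 scale, 0.53 with 5 CPM added in place of 0.5, 0.80 for the 8 genes at a ratio of 20, and from 1.38 to 1.69 when atoh1b-MO IV or V was left out. With 5 samples edgeR called 110 genes, 488 without a filter and from 13 to 260 when 1 sample was left out (13 without control I, 36 without atoh1b-MO IV, 46 without control II, 67 without atoh1b-MO V and 260 without atoh1b-MO II), and DESeq2 called 693. Of these calls, 12 of the 488 without a filter and 10 of the 693 by DESeq2 fell on the 69 genes. The controls chose these genes, so nothing is read from the counts among them. With 6 samples edgeR called 0 genes and from 0 to 110 when 1 sample was left out (110 without control III), and DESeq2 called 112. Among the other values, mostly of single genes, 292 kept their call or stayed within the spread, 57 moved and 8 lost their call. No called value turned its direction. The difference between atoh1b-MO II and the others changed sign in 6 genes, UNCX (-0.01) and vgll2b (-0.18) without atoh1b-MO V and dand5 (-0.41), ENSDARG00000099115 (-0.03), cd248b (0.12) and TMEM38A (-0.16) without atoh1b-MO IV. No paired analysis was possible because the groups share only the replicate number II. Most genes lay under 20 CPM, and the Wilson intervals did not separate atoh1b-MO II from both IV and V for 17 of the 69.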
